A study of Caenorhabditis elegans with 2 samples.

Results

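The peaks described here are the autosomal intronic sites of the pooled peak list of a ChIP-seq experiment in the nematode Caenorhabditis elegans, at the late embryo stage. ChIP-seq (chromatin immunoprecipitation followed by sequencing) recovers and maps the DNA that lies with a chosen protein, here FKH-10 carrying an eGFP tag. A peak was taken as intronic where its summit lay inside a protein-coding gene and in no protein-coding exon on 1 of the 5 autosomes. The summit also had to lie outside the promoter window (1000 bp upstream to 500 bp downstream) of every protein-coding 5′ end and more than 100 bp from any tRNA, snoRNA or snRNA gene. Of the 7443 pooled peaks 1703 met this rule (22.9%), which is 28.5% of the 5973 autosomal peaks. The rule used positions and the gene annotation, and no peak height.

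Both libraries came from whole animals of mixed sex, labelled as strain OP337 with the genotype unc119(ed3) and the integrated transgene wgIs377, which holds fkh-10 with a TY1 EGFP FLAG tag and a rescuing unc119. The number in the strain name and that in the insertion name differ, and the labels are taken as they stand. There were 2 biological replicates in 1 group, with fragments of 150 to 350 bp and a control named in the labels. No untagged strain was analysed here, and there was no second condition. The tagged protein is made from a transgene beside the animal's own fkh-10, and which embryonic cells gave the signal was not measured. The files give peaks without read counts, so read depth is unknown and no interval covers it.

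Forkhead proteins are transcription factors that bind DNA through a winged-helix domain and recognise a short core rich in A and T. In the compact nematode genome, introns can hold enhancers and promoters of shorter transcripts as well as genes for small RNAs. An intronic summit therefore marks a place inside a gene and does not say which gene the protein might act on.

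The windows of 201 bp around the summits of the 5 highest intronic peaks on chromosomes II, III, IV and V come first, as examples of tall sites. Taller peaks on the remaining autosome are described further on by their values. The 5 windows lie on ce11 (WBcel235, RefSeq sequence, plus strand) at chrII:255246-255446 in scc-2 (a loader of cohesin onto chromosomes), chrIV:8181541-8181741 in pct-1 (a cyclin-dependent kinase), chrIII:12612559-12612759 in Y111B2A.12, chrV:9731026-9731226 in drap-1 (a subunit of a general repressor of transcription) and chrII:9060405-9060605 in T24B8.3. Capitals mark the forkhead core RTAAAYA, which takes in GTAAACA and also ATAAACA, with GTAAATA as well as ATAAATA, on either strand. In 3 of the 5 windows there was no such match.
scc-2: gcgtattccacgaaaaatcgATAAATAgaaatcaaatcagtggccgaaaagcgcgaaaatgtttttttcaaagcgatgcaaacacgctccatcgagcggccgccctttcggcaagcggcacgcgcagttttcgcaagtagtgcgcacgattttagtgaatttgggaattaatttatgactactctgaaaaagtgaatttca
pct-1: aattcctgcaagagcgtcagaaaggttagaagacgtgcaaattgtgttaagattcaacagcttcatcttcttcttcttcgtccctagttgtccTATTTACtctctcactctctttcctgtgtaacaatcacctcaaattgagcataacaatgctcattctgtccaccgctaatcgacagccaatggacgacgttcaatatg
Y111B2A.12: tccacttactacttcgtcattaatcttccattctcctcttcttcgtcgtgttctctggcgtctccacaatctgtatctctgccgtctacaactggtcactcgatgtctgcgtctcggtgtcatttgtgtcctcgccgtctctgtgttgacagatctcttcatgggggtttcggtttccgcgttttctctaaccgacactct
drap-1: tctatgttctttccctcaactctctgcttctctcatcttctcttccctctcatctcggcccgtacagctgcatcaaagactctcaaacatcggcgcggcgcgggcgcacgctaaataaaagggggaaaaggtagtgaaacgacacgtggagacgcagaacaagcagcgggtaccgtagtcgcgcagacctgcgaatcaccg
T24B8.3: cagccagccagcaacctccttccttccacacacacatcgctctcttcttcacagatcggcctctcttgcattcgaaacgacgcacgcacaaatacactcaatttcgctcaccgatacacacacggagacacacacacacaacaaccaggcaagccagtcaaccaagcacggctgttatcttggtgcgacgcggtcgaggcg

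The next highest intronic summits with the core in their window are shown for comparison, with the core again in capitals. They lie at chrV:13024665-13024865 in fmi-1 (an atypical cadherin of axon navigation), chrIV:6065276-6065476 in kcc-2 (a potassium and chloride cotransporter) and chrIV:15017058-15017258 in Y41E3.7. In pct-1 the middle of the core lay 4 bp from the summit, in kcc-2 35 bp, in fmi-1 69 bp, in scc-2 77 bp and in Y41E3.7 86 bp. A match within the window is a description of the letters and not a binding site.
fmi-1: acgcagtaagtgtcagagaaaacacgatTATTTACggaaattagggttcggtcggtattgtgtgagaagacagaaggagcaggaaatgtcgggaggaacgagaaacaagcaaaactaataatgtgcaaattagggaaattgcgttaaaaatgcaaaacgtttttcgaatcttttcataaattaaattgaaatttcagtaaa
kcc-2: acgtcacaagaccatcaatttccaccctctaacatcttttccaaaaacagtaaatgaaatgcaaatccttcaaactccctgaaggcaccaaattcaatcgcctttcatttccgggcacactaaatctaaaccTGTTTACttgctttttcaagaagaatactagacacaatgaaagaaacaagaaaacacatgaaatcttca
Y41E3.7: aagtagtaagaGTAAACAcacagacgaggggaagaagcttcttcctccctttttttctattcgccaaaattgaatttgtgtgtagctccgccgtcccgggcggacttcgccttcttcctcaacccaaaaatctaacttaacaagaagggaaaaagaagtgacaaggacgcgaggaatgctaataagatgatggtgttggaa

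Windows with the repeat GAGAGAGA (TCTCTCTC on the other strand) are shown because this was the searched word with the largest difference, in points, between intronic summits and their flanks. These windows were chosen after the values were seen. They lie at chrIII:13131364-13131564 in zig-8 (a protein with immunoglobulin domains), chrIV:4586092-4586292 in F28E10.1, chrIV:14794369-14794569 in coq-3 (an enzyme of ubiquinone synthesis) and chrII:5326354-5326554 in vhp-1 (a MAP kinase phosphatase). Capitals mark the repeat. Its middle lay 9 bp from the summit in coq-3, 25 bp in zig-8, 83 bp in F28E10.1 and 90 bp in vhp-1.
zig-8: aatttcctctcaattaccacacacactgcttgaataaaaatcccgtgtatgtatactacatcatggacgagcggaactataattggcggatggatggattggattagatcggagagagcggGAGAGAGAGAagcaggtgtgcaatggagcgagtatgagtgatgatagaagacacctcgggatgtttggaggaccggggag
F28E10.1: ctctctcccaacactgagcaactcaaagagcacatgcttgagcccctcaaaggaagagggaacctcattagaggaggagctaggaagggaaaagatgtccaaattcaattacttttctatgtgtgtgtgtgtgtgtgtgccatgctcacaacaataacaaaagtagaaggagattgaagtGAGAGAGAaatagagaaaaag
coq-3: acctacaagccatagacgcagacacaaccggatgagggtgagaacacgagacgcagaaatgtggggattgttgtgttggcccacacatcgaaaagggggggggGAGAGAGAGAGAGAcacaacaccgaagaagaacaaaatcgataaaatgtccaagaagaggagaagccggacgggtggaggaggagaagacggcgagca
vhp-1: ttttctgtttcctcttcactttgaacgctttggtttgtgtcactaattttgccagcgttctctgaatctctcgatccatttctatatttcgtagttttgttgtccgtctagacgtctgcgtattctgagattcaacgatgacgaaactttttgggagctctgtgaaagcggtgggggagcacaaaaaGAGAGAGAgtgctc

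Intronic peaks were about as frequent per base as other autosomal peaks, but fewer of them reached the thresholded list. The bases that the rule allows cover 23.2 Mb (28.1% of autosomal bases), and they held 73.5 peaks per Mb, against 71.9 per Mb over all other autosomal bases. By class, promoter windows held 83.0 peaks per Mb, intergenic bases 66.7, exonic bases 55.2 and bases at tRNA, snoRNA and snRNA genes 677. The thresholded list is the authors' shorter list of peaks that passed an irreproducible discovery rate threshold, and it held 4.35% of all autosomal pooled peaks. It held 38 of the 1703 intronic peaks (2.23%, Wilson 95% interval 1.63 to 3.05) and 222 of the 4270 other autosomal peaks (5.20%, 4.57 to 5.91). The difference was -2.97 percentage points (Newcombe 95% interval -3.90 to -1.94). These intervals treat each peak as an independent count and cover counting error only.

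Against the single classes the difference varied. It was -4.03 points against promoter peaks (interval -5.37 to -2.73) and -1.04 points against intergenic peaks (-2.31 to 0.133). Against exonic peaks it was 0.0416 points (-1.24 to 1.15). Peaks at tRNA, snoRNA and snRNA genes were thresholded in 26.4% of cases, a difference of -24.2 points (-31.6 to -17.9), and supplied 42 of the 222 thresholded peaks on the other side. The 3 densest stretches of pooled peaks were marked, where the number 3 is a setting and not a result. That on chromosome I (14719496 to 14756350) held 10 intronic peaks and 7 of the 38 thresholded ones. The stretch on chromosome IV held 4 intronic peaks, none thresholded, and that on X lies outside the rule. Outside the stretches the thresholded list held 31 of 1689 intronic peaks (1.84%, interval 1.30 to 2.59), 42 of 1273 intergenic peaks (3.30%, 2.45 to 4.43) and 6 of 936 exonic peaks (0.641%, 0.294 to 1.39). The intronic share was then below the intergenic share by an interval that excludes 0 (-1.46 points, -2.72 to -0.326) and above the exonic share (1.19 points, 0.270 to 2.03).

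**Figure D1:**
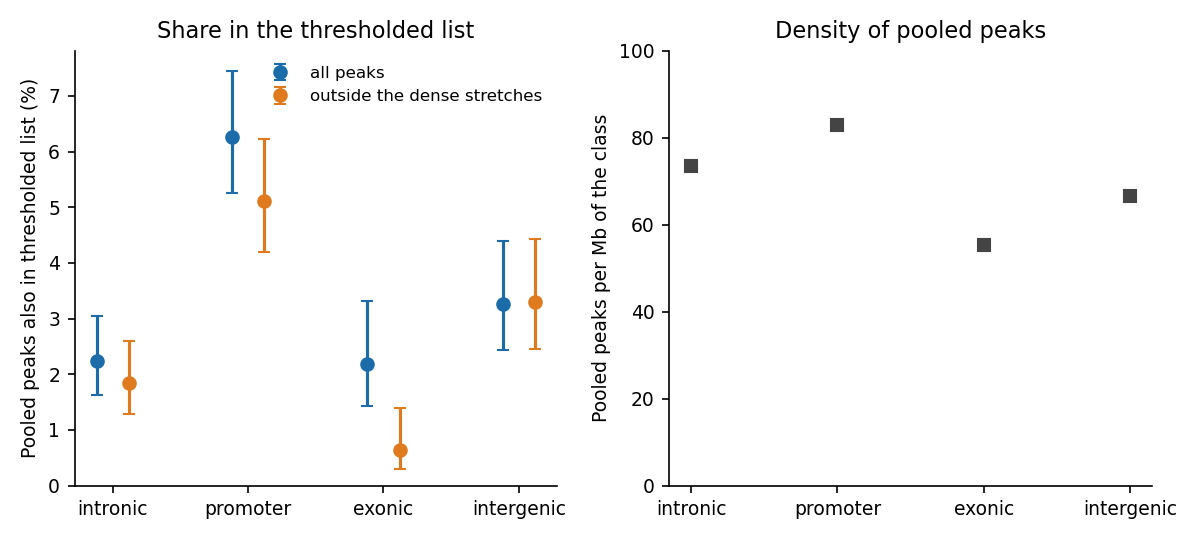
The left panel plots, for intronic, promoter, exonic and intergenic autosomal peaks, the percentage that is also in the thresholded list (points, with Wilson 95% intervals as bars), for all peaks and outside the dense stretches. The right panel plots pooled peaks per Mb of each class. Peaks at tRNA, snoRNA and snRNA genes (26.4%, 677 per Mb) are not plotted. Intronic peaks sit at 2.23%, below promoter peaks at 6.26%, while their density of 73.5 per Mb lies between 83.0 for promoter and 66.7 for intergenic bases.

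Intronic peaks leaned towards the lower part of the list in height, slightly by the median and more among the tallest peaks. Pooled signal, the height in the authors' units, ranged from 16.2 to 89.8 over the intronic peaks with a median of 18.7, against 16.2 to 138 with a median of 19.3 over the other autosomal peaks. None of the 20 highest pooled peaks was intronic by the rule, 8 of the 100 highest were, and 55 of the 500 highest. Over all pooled peaks the intronic share was 22.9%. Of the intronic peaks 43.98% lay in the upper 50% of the pooled list. At the edges of the rule, 53 intronic peaks within 100 bp of a promoter window had a median signal of 18.98, and 70 intron summits up to 100 bp inside such a window had one of 18.3. The 54 intronic peaks within 10 bp of an exon had a median of 18.4, and 70 exonic peaks within 10 bp of an exon edge had one of 18.8.

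The 2 replicates gave intronic peaks unequally. Each replicate's own list was reduced to its 7443 strongest peaks, and a pooled peak counted as strong in a replicate if it overlapped one of these by at least 1 bp. Of all autosomal pooled peaks 18.5% were strong in both replicates. Among intronic peaks 252 were (14.8%, interval 13.2 to 16.6), against 20.02% of the other autosomal peaks (18.9 to 21.3), a difference of -5.23 points (-7.25 to -3.11). In replicate 1 the shares were 54.4% of intronic and 53.9% of other peaks, a difference of 0.569 points (-2.23 to 3.36). In replicate 2 they were 36.3% of intronic and 46.1% of other peaks, a difference of -9.76 points (-12.5 to -7.01). By class, the share strong in both replicates was lower than for promoter peaks (-8.01 points, -10.5 to -5.45), while the intervals against intergenic peaks (-2.65, -5.35 to 0.00318) and exonic peaks (1.87, -0.916 to 4.52) include 0. Intronic peaks were more often strong in replicate 1 than exonic peaks (9.91 points, 5.96 to 13.8) and less often strong in replicate 2 (-7.34, -11.2 to -3.47).

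Heights within the intronic peaks also differed between replicates. Over whole lists, 1485 intronic peaks overlapped a peak of replicate 1 and 1222 one of replicate 2. There were 1009 found in both, 476 in replicate 1 alone, 213 in replicate 2 alone and 5 in neither. Across the 1009 peaks found in both, the replicate signals had a Spearman's rho of 0.0637 and a Pearson's r of 0.398, and across the 31 thresholded peaks outside the stretches rho was -0.399. These are descriptions across peaks that were chosen by pooled height and called against the same control. Of those 31 peaks, 31 overlapped a peak in each replicate and 30 a strong peak in both. The 31 were chosen through a list drawn from both replicates, so this overlap is no independent measure of agreement between them.

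**Figure D2:**
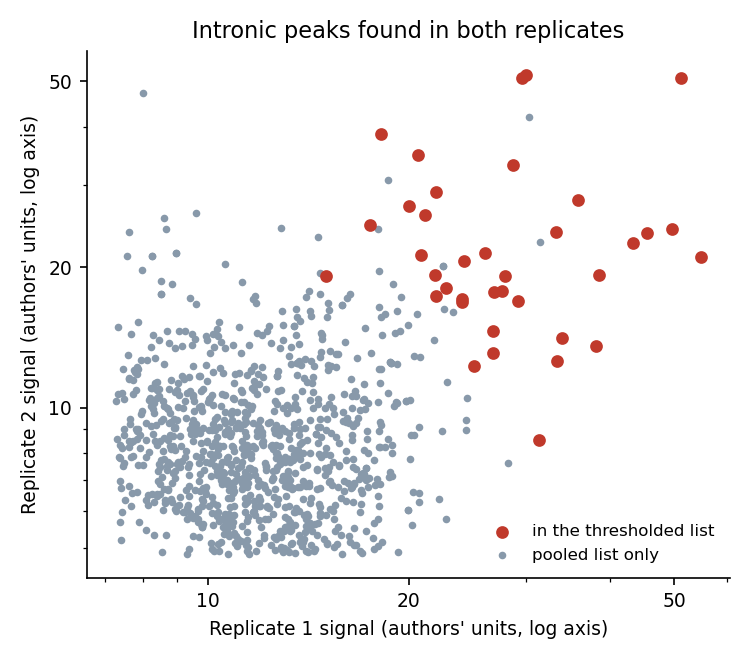
Each point is an intronic peak found in both replicates, with its signal in replicate 1 on the horizontal axis and in replicate 2 on the vertical axis (authors' units, log axes). Thresholded peaks (red) lie towards high values in one or both replicates, one of them (in pkc-1) at 31.4 in replicate 1 and 8.54 in replicate 2, and the rest (grey) show little relation between replicates (Spearman's rho 0.0637 over all 1009 points).

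Among the tallest intronic peaks, some had similar places in both replicates' lists and others did not. The highest of all lay in K05C4.5 in the stretch on chromosome I (summit 14747495), with a pooled signal of 89.8 and replicate signals of 51.1 and 50.9. The same stretch gave peaks in introns of K05C4.9 (67.0 and 58.4), K05C4.3 (51.7) and sol-2, a protein that works with a glutamate receptor (58.6). All 9 intronic peaks of a width other than the usual 336 bp lay there. Outside the stretches the highest was in the first intron of scc-2 (chromosome II, summit 255346, pooled 68.2), with 45.5 in replicate 1 and 23.7 in replicate 2. It lay 8317 bp from the gene's 5′ end and within the promoter window of another annotated transcript. The next was in intron 5 of ints-8, an Integrator subunit gene (chromosome I, summit 13463964, pooled 67.3), with 43.4 in replicate 1 and 22.5 in replicate 2, and within 100 bp of rpr-1, the gene for the RNA of RNase P.

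Some other tall peaks ranked higher in the list of replicate 2 than in that of replicate 1. In pct-1 (intron 4, pooled 58.5) the signal was 28.7 in replicate 1 and 33.1 in replicate 2, and in Y111B2A.12 (intron 4, pooled 56.6) it was 20.6 and 34.7. In T24B8.3 (intron 2, pooled 53.8) it was 18.2 and 38.5. For zig-8 the pooled signal of 52.5 stood beside 21.95 in replicate 1 and 29.01 in replicate 2, and for fmi-1 the pooled 50.8 stood beside 20.001 and 27.1. The reverse held for drap-1 (pooled 55.1, with 33.2 in replicate 1 and 23.8 in replicate 2) and for ast-1, an ETS-domain regulator of dopaminergic neurons (pooled 52.9, with 38.5 and 19.2). In F28E10.1 (pooled 49.5) the values were 33.98 in replicate 1 and 14.1 in replicate 2. Signal scales of the lists are not given, so only the order within a list can be read: the zig-8 peak ranked 432 in replicate 1 and 107 in replicate 2, and the ast-1 peak 66 and 382.

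The remaining genes that hold one of the 20 highest intronic peaks carried pooled signals of 44.9 to 47.1. These were let-607 (a CREB-like transcription factor, 47.1), gopc-1 (47.1), vps-25 (a subunit of an endosomal sorting complex, 47.0), T28F4.1 (46.8) and kcc-2 (44.9). Of these, let-607, gopc-1, vps-25 and T28F4.1 had the summit in the first intron. All were in the thresholded list, whose lowest signal over all peaks was 36.6. Thresholded intronic peaks started at 36.7 and the others reached 36.2. Among intronic peaks the list was thus a cut on pooled height, and the tallest were in it by that cut.

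Long introns held more intronic peaks per base than short ones. Introns of 1000 bp or longer held 58.1% of the intronic peaks (interval 55.7 to 60.4) on 52.2% of the bases the rule allows, a difference of 5.86 points (3.51 to 8.19). The density was 48.1 peaks per Mb in introns under 250 bp, 70.0 from 250 to 999 bp, 65.5 from 1000 to 1999 bp, 85.2 from 2000 to 4999 bp and 105.2 at 5000 bp or longer. Replicate 1 gave 50.6, 82.8, 82.6, 77.4 and 98.9 per Mb in the same order from its own strongest peaks, and replicate 2 gave 57.3, 60.8, 49.8, 78.1 and 91.1. In both replicates the longest class was highest, while the order of the other classes differed. The lowest class was under 250 bp in replicate 1 and 1000 to 1999 bp in replicate 2.

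Thresholded intronic peaks lay mostly in long introns. Outside the dense stretches, 28 of the 31 thresholded intronic peaks lay in introns of 1000 bp or longer (90.3%, interval 75.1 to 96.7). Per Mb these peaks numbered 0, 0.363, 1.19, 2.60 and 3.88 from the shortest to the longest class. The 7 thresholded peaks in the stretch on chromosome I were the opposite, with 0 of 7 in such introns. The median intron around an intronic peak was 1277 bp long, and around the 31 it was 3427 bp. The median distance from summit to nearest exon was 282 bp over all intronic peaks and 765 bp over the 31.

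**Figure D3:**
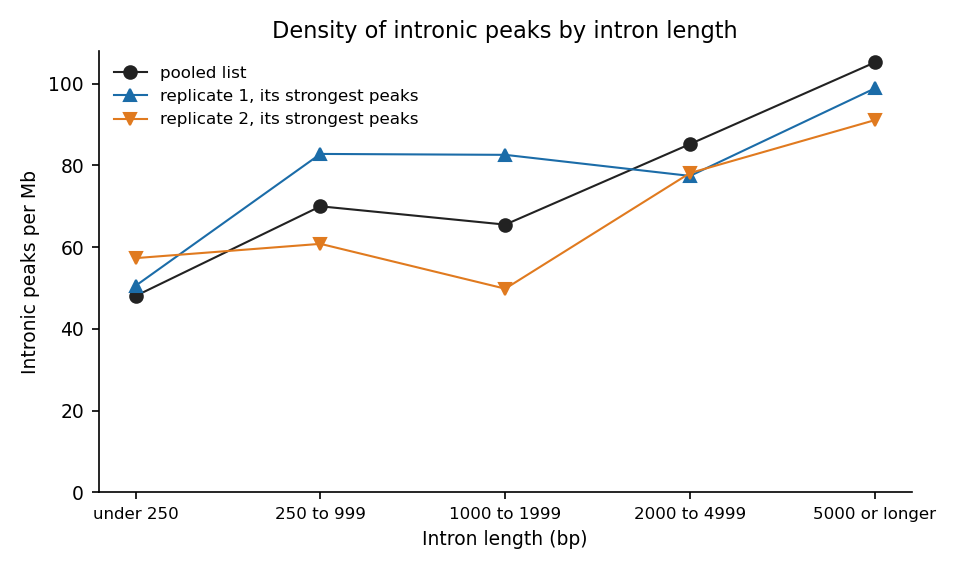
Intronic peaks per Mb of allowed intron bases are plotted by intron length in bp, for the pooled list (black) and for each replicate's own 7443 strongest peaks (blue and orange). The pooled density goes from 48.1 per Mb under 250 bp to 105.2 per Mb at 5000 bp or longer, and the longest class is the highest in both replicates.

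First introns held slightly more intronic peaks than their bases would give, and a larger share of the tallest. They held 323 intronic peaks (18.97%, interval 17.2 to 20.9) on 16.2% of the allowed bases, a difference of 2.75 points (0.956 to 4.68). In replicate 1's own strongest peaks the difference was 0.906 points with an interval that includes 0 (-0.741 to 2.69). In the lower 50% of the pooled list the share was 16.98% (14.7 to 19.5), in the upper 50% without thresholded peaks 20.7% (17.9 to 23.8), and among the 31 thresholded peaks outside the stretches 41.9% (13 peaks, 26.4 to 59.2). Windows around the 5′ ends of alternative transcripts of the same or another gene held 303 intronic peaks (17.8%, 16.05 to 19.7) on 13.5% of the allowed bases, and 8 of the 31 (25.8%, 13.7 to 43.2). The first introns of ncl-1 (a repressor of nucleolar size, intron of 7302 bp), lir-1 (8936 bp), vhp-1 (8201 bp) and ercc-1 (a DNA repair endonuclease subunit, 11671 bp) each held a thresholded peak.

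By chromosome, intronic peaks were fewer per base on V and somewhat more frequent on II and III. Chromosome V held 16.97% of them (interval 15.3 to 18.8) on 20.8% of the allowed bases, or 59.9 per Mb. The densities on II and III were 81.3 and 81.4 per Mb, with 18.5% of the peaks on II (16.7 to 20.4) and 21.6% on III (19.7 to 23.6), on 16.7% and 19.4% of the bases. On I (70.9 per Mb) and IV (75.96 per Mb) the share of bases lay within the interval. In the middle of 3 equal parts of each chromosome the share exceeded that of the bases by 0.882 points, with an interval that includes 0 (-1.19 to 3.05). In the middle 50% of each chromosome it exceeded that of the bases by 2.77 points (0.426 to 5.14), and among thresholded peaks the middle of 3 parts did so by 15.4 points (1.20 to 31.2).

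The G and C content at intronic summits was higher in taller peaks. In the window reaching 100 bp left and right of the summit it was 36.5% (SD 8.64 across 1703 peaks), against 35.8% (SD 5.999) in windows of the same size 500 bp away, a difference of 0.765 points (95% interval 0.318 to 1.21). The interval included 0 with the 5′ ends of all transcripts (0.395 points, -0.0920 to 0.881), without peaks near any non-coding gene (0.390, -0.0612 to 0.842) and in windows of 50 bp to each side (0.477, -0.0664 to 1.02). Flank windows were not limited to introns and could reach exons or promoter windows. The average over all allowed windows was 33.6% (SD 7.35). In the lower 50% of the pooled list the summits held 34.9% and the flanks 35.7%, and in the upper 50% without thresholded peaks 38.3% and 35.8%. The 31 thresholded peaks outside the stretches held 46.6% (SD 5.85) at the summit and 37.3% (SD 6.05) in the flanks, with the summit higher in 28 of 31. The 7 thresholded peaks of the stretch on chromosome I again differed, with 31.7% at the summit and 35.1% in the flanks.

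The replicates disagreed in the sign of this contrast. The strongest intronic peaks of replicate 1's own list averaged 33.5% G and C at the summit (SD 8.16, 1851 peaks) and 35.4% in the flanks, a difference of -1.89 points (interval -2.29 to -1.49). Those of replicate 2's list averaged 39.6% (SD 7.98, 1504 peaks) and 36.8%, a difference of 2.81 points (2.35 to 3.26). In the upper 10% of each list by its own signal the difference was 1.48 points in replicate 1 (185 peaks) and 7.65 in replicate 2 (150 peaks). Pooled intronic peaks that were strong in replicate 1 alone had 33.7% at the summit (675 peaks), those strong in replicate 2 alone 39.9% (367 peaks), and those strong in both 41.4% (252 peaks). The pooled difference lies between those of the replicates, which had opposite signs against flanks that were not limited to introns. Beside the average of 33.6% over all allowed windows, replicate 1's summits lay close to it and replicate 2's above it. What sets the replicates apart was not tested.

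**Figure D4:**
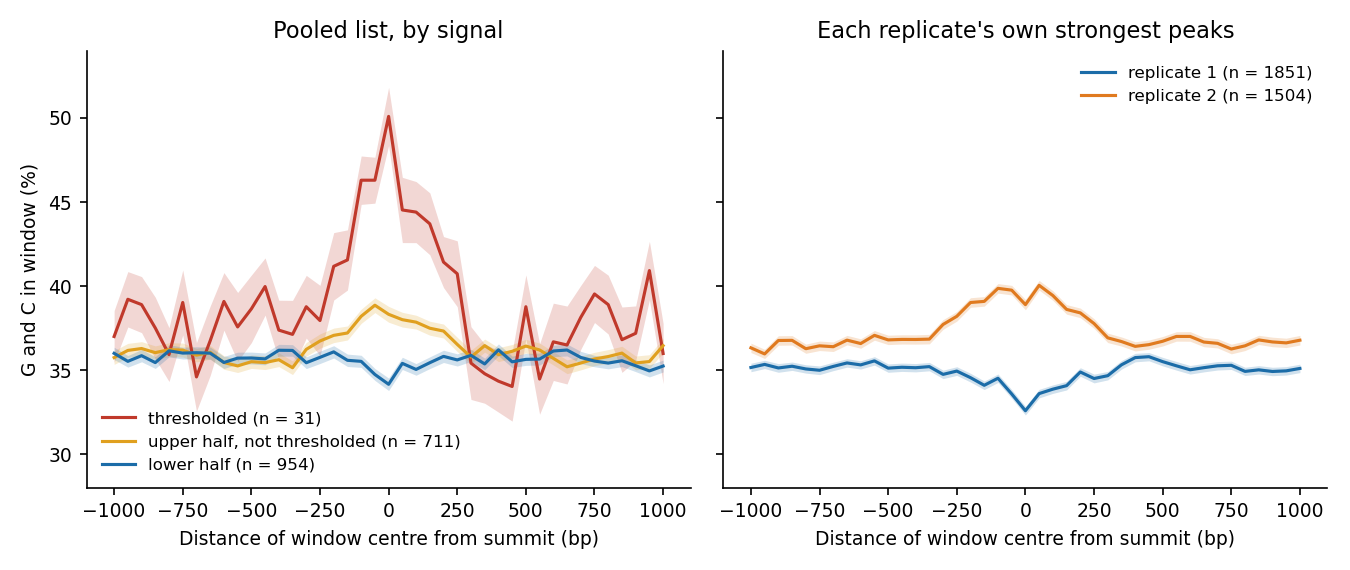
Percentage of G and C in windows of 51 bp is plotted against the distance of the window from the summit in bp, as means with bands of 1 standard error across peaks. On the left, thresholded intronic peaks outside the dense stretches reach 50.1% at the summit, while the lower 50% of the pooled list dips to 34.2%. On the right, the strongest intronic peaks of replicate 2 rise around the summit and those of replicate 1 dip to 32.6%.

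Over the pooled list, the forkhead core did not differ detectably in frequency between intronic summits and their flanks or intronic sequence at large, and the replicates differed. Of all allowed tiles of 201 bp, 16.9% held RTAAAYA on either strand. The intronic summit windows held it in 261 of 1703 cases (15.3%, interval 13.7 to 17.1), against 14.2% of flank windows. The difference was 1.17 points from the flanks (-0.858 to 3.29) and -1.60 points from the tiles (-3.24 to 0.185). With RefSeq gene models the difference from the tiles was -1.83 points, with an interval that excludes 0 (-3.46 to -0.0376). Replicate 1's own strongest intronic peaks held it more often than their flanks (2.49 points, 0.450 to 4.59) and differed from tiles by 0.413 points (-1.24 to 2.20). Those of replicate 2 differed from flanks by -1.10 points (-3.19 to 1.09) and held it less often than tiles (-3.50 points, -5.13 to -1.68). Among thresholded peaks 6 of 38 windows held it (15.8%, 7.44 to 30.4), against 18.4% of their flanks. The single form GTAAACA was present in 2.06% of summit windows, 1.53% of flank windows and 1.88% of tiles. By G and C content, the summit share was 19.9% against 20.7% of tiles below 35% G and C (interval 17.3 to 22.8), 12.7% against 14.1% from 35 to 40% (9.43 to 16.9) and 7.77% against 6.13% at 45% or above (5.23 to 11.4). From 40 to 45% it was 13.4% (10.03 to 17.7), an interval that excludes the tile share of 9.77%.

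The repeat GAGAGAGA was more frequent at intronic summits than around them. Within 100 bp it occurred at 87 of 1703 summits (5.11%, interval 4.16 to 6.26), against 1.91% of flank windows and 1.33% of tiles. The difference from the flanks was 3.20 points (2.12 to 4.42). It was 2.13 points in replicate 1's own strongest intronic peaks (3.94% of summits, 1.81% of flanks) and 3.76 points in those of replicate 2 (5.72% and 1.96%). Intronic peaks strong in both replicates held it in 11.9% of windows (8.47 to 16.5), against 1.98% of their flanks. On each of the 5 autosomes summits exceeded flanks, from 2.31 points on IV to 5.22 points on I. The shares of windows with the repeat rose with G and C content at summits and in tiles alike. Below 35% G and C, where 794 of the 1703 peaks lie, the summit share was 0.882% (0.428 to 1.81) against 0.542% of tiles, an interval that includes the tile share. From 35 to 40% G and C the summit share was 4.56% against 1.71% of tiles, from 40 to 45% it was 7.52% against 2.94%, and at 45% or above it was 14.5% against 4.06%.

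Outside the dense stretches the thresholded intronic peaks held the repeat most often. It was present at 8 of the 31 thresholded peaks outside the stretches (25.8%, interval 13.7 to 43.2) and in 1.61% of their flanks, but at 0 of the 7 in the stretch on chromosome I, which include the tallest of all. The 8 were zig-8, F28E10.1, coq-3 and vhp-1, whose windows are printed above, with gopc-1, vps-25, T28F4.1 and ncl-1. In the upper 50% of the list without thresholded peaks the share was 6.33% (4.76 to 8.36), and in the lower 50% 3.56% (2.56 to 4.94). The repeat was not particular to introns: intergenic summits held it in 8.26% of windows (6.87 to 9.89), promoter summits in 4.18% (3.36 to 5.18) and exonic summits in 1.98% (1.27 to 3.07).

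Of the other words searched, TATAAA was rarer and GGGCGG more frequent at intronic summits than in tiles. TATAAA was present in 17.03% of summit windows (interval 15.3 to 18.9), 19.8% of flanks and 21.8% of tiles, and in 1 of the 38 thresholded windows against 22.4% of their flanks. GGGCGG was present in 6.58% (5.49 to 7.85), against 3.73% of flanks and 3.54% of tiles. Summits averaged 36.5% G and C and tiles 33.6%, and these words were not compared within classes of G and C content. The E-box CACGTG was present in 3.46% of summits and 3.58% of flanks. The word GTTCGANTC, from the internal promoter of tRNA genes, was present at 6 summits (0.352%, 0.162 to 0.767), against 0.440% of flanks and 0.494% of tiles. Summits lay on bases soft-masked as repeats in 48.3% of cases (45.9 to 50.6), against 54.5% of the allowed bases, and in 7 of the 31 thresholded peaks outside the stretches (22.6%, 11.4 to 39.8). That deficit was -14.5 points in replicate 2's own strongest peaks (interval -16.9 to -12.005) and -1.14 points in those of replicate 1 (-3.42 to 1.12).

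Of the non-coding gene classes that the rule leaves in, the class annotated as other ncRNA held more intronic peaks than the overall density gives. Within 100 bp of a gene annotated as other ncRNA lay 92 intronic peaks (5.40%), on bases that would hold 34.6 at the overall density. Of these 92, 5 were thresholded, where the share over all intronic peaks is 2.23%. They included ints-8 at rpr-1, pct-1 at C07G1.13, drap-1 at F40F9.14 and F40F9.15, T28F4.1 at T28F4.7 and ercc-1 at F10G8.10. At piRNA genes, whose small RNAs silence foreign transcripts in the germline, lay 35 intronic peaks where the overall density gives 45.2. None of the 35 was thresholded, and with so few peaks a share below 2.23% was not detectable. At pseudogenes lay 8, where the overall density gives 11.2.

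Genes that held an intronic peak had more allowed bases than the other genes. More bases give more places for a peak, and density by gene size was not tested. Of the 13380 autosomal protein-coding genes with allowed bases 1199 held at least 1 intronic peak (8.96%), and these had a median of 4.26 kb of allowed bases, against 0.572 kb in the other genes. There were 915 genes with 1 peak, 175 with 2 and 109 with 3 or more, and these 109 genes held 438 of the 1703 peaks. The gene with most was hmr-1, the classical cadherin of cell junctions, with 15 peaks in 6 introns, where its 47.0 kb of allowed bases would hold 3.45 at the overall density. Replicate 1's own strongest peaks placed 12 summits there and those of replicate 2 placed 11. None of the 15 was thresholded, and their pooled signals ran from 16.3 to 32.1.

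The genes that followed were likewise above the overall density. For mpz-1, a scaffold with PDZ domains, 12 peaks in 9 introns compared with 2.28 at the overall density (10 in replicate 1 and 9 in replicate 2). For ptp-3, the LAR-type receptor phosphatase of axons and synapses, 10 peaks compared with 2.03 (9 in replicate 1 and 4 in replicate 2). For mbk-2, a DYRK kinase of the early embryo, 10 peaks compared with 1.59 (6 and 4), and for kin-1, the catalytic subunit of protein kinase A, 8 compared with 2.38 (6 and 6). These genes were picked for their counts in the pooled list, so their excess is a description. Peaks close together can also be 1 site: the kin-1 summits at 14926317 and 14926516 had the same values in each replicate. Close pairs of summits also lay in mpz-1, ptp-3 and mbk-2. The median signals were 24.5 in kin-1, 21.9 in mpz-1 and 20.3 in ptp-3, above the median of 18.7 over all intronic peaks, and 18.4 in hmr-1 and 17.7 in mbk-2, below it. Of the 55 peaks in these 5 genes 0 were thresholded, where the share over all intronic peaks is 2.23%, so that a lower share was not detectable.

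**Figure D5:**
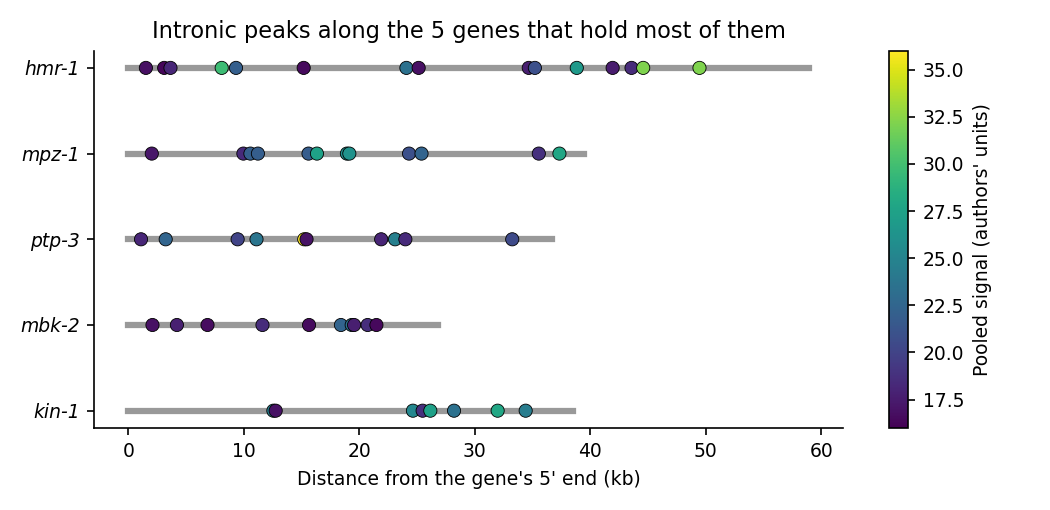
Grey bars show the length of the 5 genes with most intronic peaks, from the 5′ end (in kb), and each point is a peak, coloured by pooled signal in the authors' units. In hmr-1 the 15 peaks run from 1508 to 49456 bp from the 5′ end, and the highest value in these genes is 36.1, in ptp-3.

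Genes of cell adhesion and axon guidance held the most intronic peaks per base of the 13 gene lists examined. Of the 44 genes with allowed bases 23 held a peak (52.3%, interval 37.9 to 66.2), and the list had 73 peaks, or 170.3 per Mb, against 73.5 per Mb over all genes. Its bases would hold 31.5 at the overall density. These genes had 9.74 kb of allowed bases on average, against 1.73 kb over all genes, and the part of intron length in the density was not tested. Replicate 1's own strongest peaks gave 147 per Mb in this list (79.8 over all genes) and those of replicate 2 gave 152 (64.9 over all genes). Without hmr-1 the list still had 58 peaks, or 152.01 per Mb. Of the 73 peaks 3 were thresholded, where the share over all intronic peaks is 2.23% (38 of 1703), and so few peaks show no excess. These 3 lay in zig-8, fmi-1 and cdh-1 (a cadherin, pooled 44.1). Other peaks lay in ptp-3 (10), unc-53 (a cytoskeletal regulator of axon growth, 4), vab-1 (the ephrin receptor, 4), plx-1 (a plexin, 4) and sax-7 (an L1-type adhesion molecule, 4).

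Of the other neuronal and developmental lists some lay above the overall density in both replicates. Synaptic and pan-neuronal genes had a peak in 17 of 37 genes and 34 peaks in all (123 per Mb). Replicate 1 gave 142 per Mb, against 79.8 over all genes. Replicate 2 gave 72.6 from 20 peaks, only slightly above its 64.9 over all genes. The peaks in this list with the highest signals lay in unc-108 (a Rab GTPase, 34.5) and syd-1 (an organiser of presynaptic sites, 34.4). Wnt and Notch pathway genes had a peak in 8 of 33 genes and 16 in all (134 per Mb), with 134 in replicate 1 and 109 in replicate 2, among them 4 each in lit-1 (a Nemo-like kinase) and lin-12 (a Notch receptor). Epidermal and cuticle genes had 8 peaks (101.3 per Mb, with 114 in replicate 1 and 139 in replicate 2), of which 5 lay in vab-10, a spectraplakin gene. With vab-10 left out the list had 3 peaks, or 65.04 per Mb. None of the peaks in these 3 lists was thresholded, where the share over all intronic peaks is 2.23%, so that a lower share was not detectable.

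Several lists lay near the overall density or changed place between replicates. Ion channel and receptor genes had 26 peaks (80.7 per Mb, with 52.8 in replicate 1 and 77.6 in replicate 2), with unc-103, an ERG-type potassium channel, holding 5. Body wall muscle genes had 14 (74.7 per Mb, 96.1 and 53.4), basement membrane genes 6 (74.4 per Mb), nuclear hormone receptor genes 21 (73.1 per Mb, 83.5 and 48.7) and homeobox genes 8 (72.6 per Mb, 36.3 and 127). Among nuclear hormone receptors, nhr-11 held 4 and nhr-105, in the stretch on chromosome IV, held 2. Intestinal genes had 1 peak, in eps-8 (24.996 per Mb), against 5 among replicate 1's own strongest peaks (125 per Mb) and 2 among those of replicate 2 (49.99 per Mb). The pharyngeal and germline lists had 0 of 16 and 0 of 35 genes with a peak, with 1 pharyngeal and 1 germline peak among replicate 1's own strongest and 0 and 2 among those of replicate 2. Their bases would hold 2.94, 1.72 and 2.85 peaks, so a deficit was not detectable.

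Forkhead genes themselves had 7 intronic peaks in 3 of 10 genes, where 4.08 would fall at the overall density. The gene daf-16, the FOXO factor of insulin signalling, held 4, the highest with a pooled signal of 34.6 (chromosome I, summit 10751846, with 18.04 in replicate 1 and 16.5 in replicate 2). Its summits at 10757224 and 10757442 had the same replicate values (19.8 in replicate 1 and 10.3 in replicate 2), so they may be 1 site. Without daf-16 the list had 3 peaks, or 90.1 per Mb, against 73.5 per Mb over all genes. In fkh-7 there were 2, the higher with 29.9 (7.62 in replicate 1 and 23.8 in replicate 2), and in let-381, a FoxF-type gene, there was 1 (25.5). The tagged gene fkh-10 has 505 bp of allowed bases and held 0. The nearest intronic peak, in F10G8.8, lay 105710 bp away.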

How the data were processed

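ChIP-seq peak lists on ce11 were used from 1 group of 2 biological replicates. From each replicate and a control the authors called relaxed peaks, per replicate and on both together, and thresholded them by the irreproducible discovery rate, per the deposited file descriptions. The aligner and the caller were not given in the sources used here. Each deposited peak holds a signal (height on a scale not stated), the -log10 of a q-value, not used to select peaks, and the summit's offset. Genes came from Ensembl release 115 and sequence and soft-masking from RefSeq's WBcel235. Introns were the gaps between the merged exons of all transcripts of a gene, numbered from its 5′ end. Where genes overlapped, the gene with the longest gap was taken as the host. Of the intronic peaks 35 lay inside more than 1 protein-coding gene. Dense stretches were the 3 densest windows of 35 kb in steps of 5 kb, extended over gaps of up to 3 kb. Tiles were 201 bp windows across all allowed bases. Flank windows, for G and C and for words alike, were not limited to allowed bases. Shares carry Wilson and differences Newcombe 95% intervals, and the shared control and neighbouring peaks make peaks less than independent. G and C intervals are normal intervals over peaks. The members, the 13 gene lists and the tests were chosen with earlier results of these data known. Genes named are hosts of the 20 highest intronic peaks, the 5 genes with most, up to 4 of the highest per list, and fkh-10. Genes named beyond these, the GAGAGAGA windows and the values by replicate were chosen after their values were seen. Alternatives were other windows, gene models, lists and overlaps. The calculations were tested on simulated data and used Python 3.11.15 (numpy 2.4.6, scipy 1.17.1, pandas 2.3.3), with figures by matplotlib 3.10.9.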

Additional observations from a re-analysis of the deposited data

How the results depend on the processing

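Under 19 other settings, 110 values were recomputed for 11 results, of which 81 stayed within the original interval (counts within 1.5 times), 28 moved outside it and 1 turned its sign. Each replicate's own strongest peaks, in place of the pooled list, gave -1.89 to 2.81 points for G and C at summits minus flanks, 0.906 to 2.20 for first introns, 3.11 to 3.64 for introns of 1000 bp or longer and -14.5 to -1.14 for soft-masked bases. For the forkhead core they gave -1.10 to 2.49 points against flanks and -3.50 to 0.413 against tiles, with 1504 to 1851 intronic peaks. In the thresholded list there were 38 intronic peaks, and the differences were 20.6 points for first introns, 21.5 for long introns, 15.4 for the middle of 3 equal parts of a chromosome, 6.96 for G and C, -2.63 for the core against flanks, 19.7 for GAGAGAGA and -28.1 for soft-masked bases. In the upper 50% of the pooled list there were 749, with 5.28, 10.8, 2.79, 4.67 and -12.5 points for first introns, long introns, G and C, GAGAGAGA and soft-masked bases. Long introns counted from 2000 bp gave 8.21 points. Thresholded peaks outside the stretch on I gave 25.7, 38.1 and 9.30 points for first introns, long introns and G and C. For GAGAGAGA, windows of 50 bp to either side gave 1.76 points and summits off soft-masked bases 4.54. The settings of the last 2 sentences and all those for GAGAGAGA were chosen after seeing the data. For G and C, 3 further settings gave values within the original interval whose own intervals include 0 (0.390 to 0.477 points). The middle 50% of each chromosome gave 2.77 points (0.426 to 5.14). The causes were not tested. The lower shares of intronic peaks in the thresholded list and in both replicates stayed within their intervals in the settings run for them. No paired analysis was possible because the series holds 1 group.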

Other observations

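Read depth is unknown, no untagged strain was analysed here and both replicates share a control, so neither intronic peaks nor their absence can be assigned to FKH-10 from these lists. Most intronic peaks lie in the relaxed part of the pooled list, which holds background by construction, and 2.23% reached the thresholded list. The -log10 q-values of the intronic peaks had a median of 0.0884 and a highest value of 2.25, so most were weak by that measure too. Results over all 1703 peaks therefore describe mainly weak peaks, and those over the 31 thresholded peaks outside the dense stretches rest on few. Peaks in 1 gene share their surroundings and are not replicates. Replicate 2's own list holds exactly 30000 peaks and that of replicate 1 holds 27900.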
